A study of Mus musculus with 12 samples.

Results

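The mouse mitochondrial genome is represented by 37 rows, those whose gene name starts with mt-, among the 55425 gene identifiers shared by all 12 deposited expression tables. They comprise 13 protein-coding messages, 2 ribosomal RNAs (rRNAs) and 22 transfer RNAs (tRNAs). The measurements came from 4 groups of 3 libraries of HM1, a murine ovarian cancer cell line. Cultured cells carried a short hairpin RNA against St3gal3 (shST3GAL3) or a control hairpin (shControl), and tumors of HM1 cells carried the same hairpins. The labels give the genotype of the shST3GAL3 groups as ST3GAL3 knockdown and that of the shControl groups as wild type. They name no clone, vector or host animal, and they leave unsaid if the libraries of a group stem from different cultures or mice. P-values thus reflect library-to-library spread only, and part of it may be technical. In bulk samples, fewer cells of a type and less RNA per cell cannot be told apart.

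The mitochondrial genome is a small circle transcribed from both strands into long precursor RNAs. The tRNAs lie between most of the other genes, and their excision by RNase P and the tRNase Z enzyme ELAC2 releases the rRNAs and messages, most of which then receive short poly(A) tails. All 13 encoded proteins are hydrophobic core subunits of the oxidative phosphorylation machinery: 7 belong to complex I (NADH dehydrogenase), 1 to complex III, 3 to complex IV (cytochrome c oxidase) and 2 to complex V (ATP synthase). The rRNAs and tRNAs serve the mitochondrial ribosome that translates these messages.

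Values are TPM, a length-corrected level scaled to the same total in every library, as the authors deposited it. TPM keeps no sequencing depth, so the depth behind a value is unknown and counting intervals were left out. St3gal3, the hairpin target and a sialyltransferase gene, averaged 1.53 ± 0.290 TPM in knockdown culture and 11.7 ± 1.82 TPM in control culture (SD, n = 3 each; limma adjusted p = 0.00689). In tumors it averaged 6.30 ± 0.848 TPM in knockdown and 14.9 ± 0.794 TPM in control (SD, n = 3 each; limma adjusted p = 0.00954). The HM1 label was checked against 10 epithelial markers. The keratin genes Krt8, Krt18 and Krt19 lay between 631 and 2141 TPM in all 12 libraries, while Epcam and Pax8 did not exceed 0.82 TPM in any. Of the 10 markers, 4 had a mean of at least 1 TPM in each culture group and 5 in each tumor group.

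The deposited tables also list 7 nuclear genes, all unprocessed pseudogenes, that are near-identical copies of mitochondrial messages. In the GENCODE M21 annotation of the GRCm38 build they lie side by side on the minus strand within chr1:24611535-24616197. The submitters' processing notes name GRCm39, so these coordinates and the sequences below describe the annotation, matched to the tables by gene identifier. The lengths listed in the tables equal the annotated lengths for 37 of 37 mitochondrial genes and 7 of 7 copies. The next 2 sequences show how alike a member and its copy are. mt-Nd4l, which encodes complex I subunit 4L, lies at chrM:9877-10173, and its copy Gm10222 at chr1:24612407-24612700. Capitals mark the stop codon of mt-Nd4l, the only bases beyond the annotated end of Gm10222. The other 294 of 297 bases are identical. The neighbouring copy Gm28439 (chr1:24611535-24612410) overlaps the end of Gm10222 on the same strand. It begins with the first bases of mt-Nd4, which include the last 7 bases of mt-Nd4l. The stop codon thus follows on chromosome 1 too, and it is missing only because the annotated row of Gm10222 ends before it.
mt-Nd4l: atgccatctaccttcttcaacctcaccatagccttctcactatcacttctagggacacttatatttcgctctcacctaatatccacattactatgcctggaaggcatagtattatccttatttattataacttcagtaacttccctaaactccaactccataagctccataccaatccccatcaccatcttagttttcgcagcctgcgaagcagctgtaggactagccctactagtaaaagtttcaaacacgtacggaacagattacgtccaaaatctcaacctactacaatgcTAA
Gm10222: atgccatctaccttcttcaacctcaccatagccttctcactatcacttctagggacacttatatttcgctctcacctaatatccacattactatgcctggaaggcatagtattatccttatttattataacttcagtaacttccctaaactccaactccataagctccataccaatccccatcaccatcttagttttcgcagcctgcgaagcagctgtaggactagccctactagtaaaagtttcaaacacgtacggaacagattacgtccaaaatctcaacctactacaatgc

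Most of the other pairs were similarly alike. Gm28661 matched mt-Co2 over 681 of 681 bases, Gm28437 matched mt-Co3 over 783 of 783 bases, and Gm10925 matched mt-Atp6 over 678 of 678 bases. Gm28438 matched mt-Nd3 over 344 of 345 bases, with the single substitution T3C, counted from 1 at the first base of mt-Nd3. These 5 copies are shorter than their mitochondrial counterparts by 1 or 3 bases. The remaining pair of copies covers less of its counterpart. Gm28439 matched the first 876 of the 1378 bases of mt-Nd4, and Gm29216 matched 486 of the last 492 of the 1545 bases of mt-Co1, with T1056A, C1057T, A1059G, A1060G, C1062A and A1066T at the mt-Co1 positions given. Of all 100-base windows of a message, the share found in another annotated transcript was 97.6% for mt-Nd3, 98.5% for mt-Nd4l, 99.5% for mt-Co2, 99.9% for mt-Co3 and 99.5% for mt-Atp6, 60.8% for mt-Nd4 and 30.8% for mt-Co1. It was 3.19% for mt-Nd2. It was 0 for mt-Nd1, mt-Nd5, mt-Nd6, mt-Cytb, mt-Atp8 and both rRNAs. The share depended on the window. With windows of 50 bases it was 7.61% for mt-Nd5, 1.04% for mt-Rnr2, 8.19% for mt-Nd2 and 51.1% for mt-Co1. For mt-Nd1, mt-Nd6, mt-Cytb, mt-Atp8 and mt-Rnr1 it stayed at 0. The read length was not given in the sources used here.

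The levels of the 5 messages with a whole copy were low and erratic beside those of their copies. mt-Co2, cytochrome c oxidase subunit 2, was listed at 358, 304 and 217 TPM in knockdown culture and 118, 185 and 248 TPM in control culture, whereas its copy Gm28661 averaged 7054 ± 617 and 7707 ± 509 TPM there (SD, n = 3 each). mt-Co3, cytochrome c oxidase subunit 3, was at 339.8, 115 and 240.2 TPM in knockdown culture, against 182, 0.25 and 330.3 TPM in control culture. The value of 0.25 TPM belongs to control library 2, in which Gm28437 was at 5252 TPM.

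Over the 12 libraries, the mitochondrial row received between 0.00477% and 6.63% of the combined length-weighted TPM of mt-Co3 and its copy. The corresponding range was 1.41% to 8.71% for mt-Co2, 0.957% to 6.68% for mt-Atp6, 4.83% to 11.7% for mt-Nd4l and 7.68% to 24.8% for mt-Nd3. The pattern was the opposite for the 2 partial copies. mt-Co1 kept 85.4% to 89.9% of its combined TPM, and mt-Nd4 kept 100%, its copy Gm28439 being listed at 0 in all 12 libraries. For the 5 messages with a whole copy, the coefficient of variation within a group ran from 13.8% to 96.8%, with a median of 34.9% over 20 values. After each was summed with its copy, weighted by listed length, it ran from 2.61% to 13.7% with a median of 7.56%. The other 8 messages alone had a median of 6.07%. RNA of the mitochondrial gene and RNA of its nuclear copy cannot be told apart in these sums. Results are therefore given both for the rows alone and for the sums, and the sums were chosen after the values were seen.

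**Figure D1:**
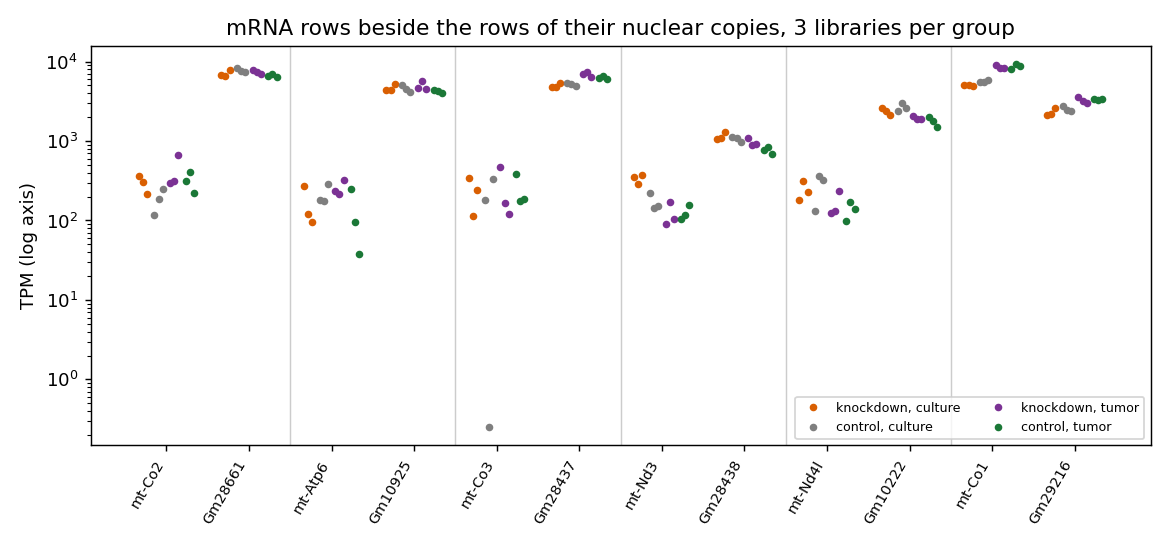
TPM on a log axis of 6 mitochondrial messages, each left of its nuclear copy, with 1 point per library and 3 libraries per group (Gm28439, at 0 throughout, is not drawn). The copies Gm28661, Gm10925, Gm28437, Gm28438 and Gm10222 lie far above their counterparts in all libraries, and mt-Co1 lies above Gm29216.

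All 22 tRNAs were listed at 0 in all 12 libraries, so no group could be compared. They are mt-Ta, mt-Tc, mt-Td, mt-Te, mt-Tf, mt-Tg, mt-Th, mt-Ti, mt-Tk, mt-Tl1, mt-Tl2, mt-Tm, mt-Tn, mt-Tp, mt-Tq, mt-Tr, mt-Ts1, mt-Ts2, mt-Tt, mt-Tv, mt-Tw and mt-Ty, the letter after mt-T being the amino acid carried. The annotation places 14 on the plus and 8 on the minus strand of chromosome M. The longest, mt-Tl1 for leucine (chrM:2676-2750), and the shortest, mt-Ts2 for serine (chrM:11613-11671), are printed to show the size of these targets; no base is capitalised.
mt-Tl1: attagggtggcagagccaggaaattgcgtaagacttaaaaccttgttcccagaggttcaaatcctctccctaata
mt-Ts2: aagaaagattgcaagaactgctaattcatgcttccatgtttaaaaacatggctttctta

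At 59 to 75 bases the tRNAs belong to a size class that was almost empty in these tables. Of 1009 other listed genes of at most 75 bases, 5 were above 0 in any library, or 0.496%. The share was 7.26% of 1432 genes of 76 to 100 bases, 20.01% of 2119 genes longer than 200 and up to 300 bases, and 66.0% of 46413 longer genes. A listed 0 is therefore a statement about these tables, and the tRNA content of the cells was not measured.

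The 2 rRNAs, the core RNAs of the mitochondrial ribosome, were low in every group. mt-Rnr1, the small-subunit 12S rRNA, was at 140.3, 126 and 156 TPM in knockdown culture and 154, 139 and 115 TPM in control culture. In tumors it was at 173, 151.3 and 174 TPM in knockdown and 199.8, 162 and 173 TPM in control. The knockdown and control ranges overlapped in both tissues.

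mt-Rnr2, the large-subunit 16S rRNA, was at 102, 89.3 and 96.3 TPM in knockdown culture and 102, 111 and 104 TPM in control culture. In tumors it was at 81.9, 60.2 and 93.3 TPM in knockdown and 116, 83.8 and 94.6 TPM in control. The lowest of all was knockdown tumor 2, and the groups again overlapped. Both log2 changes in tumors were negative, at -0.099 for mt-Rnr1 (SE 0.0959, adjusted p = 0.596 by limma) and -0.33 for mt-Rnr2 (SE 0.188, adjusted p = 0.394 by limma), and neither passed the threshold.

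The large rRNA lay below the small one in all 12 libraries. The ratio of mt-Rnr2 to mt-Rnr1 averaged 0.683 ± 0.0577 in knockdown culture and 0.786 ± 0.119 in control culture, and 0.469 ± 0.0694 in knockdown tumors and 0.548 ± 0.0314 in control tumors (SD, n = 3 each). Summed, the 13 messages exceeded the rRNAs by a factor of 119 ± 8.15 in knockdown culture, 122 ± 9.15 in control culture, 131 ± 18.2 in knockdown tumors and 104 ± 13.2 in control tumors (SD, n = 3 each). The labels name total RNA and do not say whether libraries were poly(A)-selected or depleted of rRNA. Of 12 listed RNAs without a poly(A) tail, 9 are in the tables, and their sum ranged from 82.0 to 250 TPM in knockdown culture, 129 to 212 TPM in control culture, 19.3 to 50.6 TPM in knockdown tumors and 11.2 to 50.3 TPM in control tumors. Whether library selection moved the rRNA values was not tested.

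As rows alone, the 13 messages spread from 0.25 TPM for mt-Co3 in control culture library 2 to 17001 TPM for mt-Atp8 in knockdown tumor library 2. mt-Atp8, which encodes a small membrane subunit of ATP synthase, was the gene with the highest TPM of the whole table in 11 of 12 libraries and ranked 2 in control tumor library 3. It was at 12488, 12436 and 12357 TPM in knockdown culture and 12371, 13843 and 12233 TPM in control culture. Alone, the 13 messages took 2.80% ± 0.0463 of all TPM in knockdown culture, 2.93% ± 0.0894 in control culture, 3.17% ± 0.0645 in knockdown tumors and 2.86% ± 0.196 in control tumors (SD, n = 3 each). With the TPM of the 7 copies added, without weighting by length, the share was 5.06% ± 0.182 in knockdown culture, 5.31% ± 0.175 in control culture, 5.73% ± 0.220 in knockdown tumors and 5.16% ± 0.280 in control tumors (SD, n = 3 each). The plot of all rows in genome order shows mt-Atp8 standing above its neighbours and the run from mt-Co2 to mt-Nd4l scattered at low levels.

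**Figure D2:**
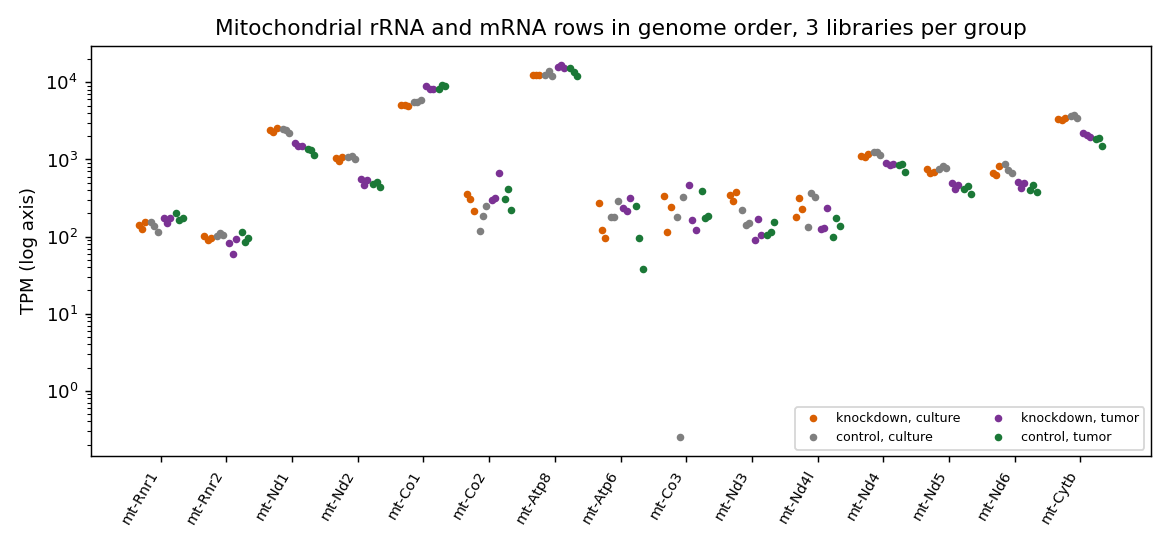
TPM on a log axis of the 2 rRNAs and 13 messages in genome order, rows alone, with 1 point per library. mt-Atp8 lies highest at 12216 to 17001 TPM, the rRNAs lie between 60.2 and 200 TPM, and the single point at 0.25 TPM is mt-Co3 in control culture library 2.

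With copies added, the order of levels was nearly the same in all groups. In knockdown culture it ran mt-Atp8 (12427 ± 66.3 TPM), mt-Co2 (7316 ± 554), mt-Co1 (5747 ± 41.2), mt-Co3 (5205 ± 337), mt-Atp6 (4798 ± 479), mt-Cytb (3361 ± 125), mt-Nd4l (2610 ± 245), mt-Nd1 (2397 ± 125), mt-Nd3 (1484 ± 166), mt-Nd4 (1120 ± 40.5), mt-Nd2 (1021 ± 61.1), mt-Nd6 (709 ± 105) and mt-Nd5 (705 ± 45.2) (TPM, SD, n = 3). Control culture had the same first 11 places, with mt-Nd5 ahead of mt-Nd6. Neighbours whose libraries overlapped there were mt-Co3 and mt-Atp6, mt-Nd4l and mt-Nd1, mt-Nd3 and mt-Nd4, and mt-Nd5 and mt-Nd6. In knockdown culture the overlapping neighbours were mt-Co3 and mt-Atp6, mt-Nd4l and mt-Nd1, and mt-Nd6 and mt-Nd5.

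In both tumor groups mt-Co1 took the place below mt-Atp8, ahead of mt-Co2, and mt-Nd4l stood just ahead of mt-Cytb. mt-Co1, the catalytic subunit of cytochrome c oxidase, averaged 9551 ± 471 TPM with its copy in knockdown tumors and 9834 ± 558 TPM in control tumors (SD, n = 3 each). Overlapping neighbours in both tumor groups were mt-Co2 and mt-Co3, mt-Nd4l and mt-Cytb, mt-Nd2 and mt-Nd6, and mt-Nd6 and mt-Nd5, and in control tumors also mt-Nd3 and mt-Nd4.

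Pairs of genes that share a message differed in level. mt-Atp8 and mt-Atp6 are translated from a common bicistronic RNA, and their reading frames overlap by 43 bases. The sequence of mt-Atp8 (chrM:7766-7969) is printed because this row leads all others; capitals mark the overlap with mt-Atp6.
mt-Atp8: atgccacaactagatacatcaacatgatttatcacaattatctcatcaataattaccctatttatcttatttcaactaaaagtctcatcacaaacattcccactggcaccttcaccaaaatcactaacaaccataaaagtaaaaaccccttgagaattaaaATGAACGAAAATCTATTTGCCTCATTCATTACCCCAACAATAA

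The ratio of mt-Atp8 to mt-Atp6 was between 41.9 and 319 for the rows alone. With Gm10925 added to mt-Atp6 it averaged 2.61 ± 0.259 in knockdown culture, 2.70 ± 0.325 in control culture, 3.09 ± 0.192 in knockdown tumors and 3.19 ± 0.138 in control tumors (SD, n = 3 each). mt-Nd4l and mt-Nd4 also share a message and overlap by 7 bases. Their ratio was between 0.106 and 0.294 alone, and with copies it averaged 2.34 ± 0.285 in knockdown culture, 2.43 ± 0.356 in control culture, 2.40 ± 0.0344 in knockdown tumors and 2.37 ± 0.0935 in control tumors (SD, n = 3 each). In both pairs the shorter gene, at 204 against 681 bases and 297 against 1378 bases, had the higher level per length once copies were added. The fragment length used for TPM was not given in the sources used here.

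mt-Nd6, subunit 6 of complex I, is the single message on the minus strand of the annotation. Its level was close to that of its neighbour mt-Nd5 on the other strand: the ratio of mt-Nd6 to mt-Nd5 averaged 1.01 ± 0.178 in knockdown culture, 0.979 ± 0.168 in control culture, 1.05 ± 0.0119 in knockdown tumors and 1.03 ± 0.0444 in control tumors (SD, n = 3 each). Strand use in counting was not given in the sources used here, so RNA of mt-Nd6 and RNA from the opposite strand cannot be told apart. The annotated ends also differ: mt-Nd4, mt-Cytb and mt-Co3 stop at a single T of the stop codon, which polyadenylation completes, and the other 10 messages end in a complete TAA or TAG.

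The first comparison asked how the St3gal3 hairpin changed these genes in cultured cells. No mitochondrial gene was called. mt-Nd3, subunit 3 of complex I, had the smallest adjusted p of the rows alone, at 351, 287 and 378 TPM in knockdown culture, against 222, 143 and 151.2 TPM in control culture. All knockdown libraries lay above all control libraries. The log2 change was 0.99 (SE 0.185) with a limma adjusted p of 0.518. With Gm28438 added, the 3 libraries of each group still did not overlap, at 1416, 1362 and 1673 TPM in knockdown culture and 1320, 1237 and 1122 TPM in control culture, but the log2 change was 0.27 (SE 0.0949, adjusted p = 1.00 by limma). Without control library 1, the mt-Nd3 row was called, with a log2 change of 1.19 and a limma adjusted p of 0.0299.

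mt-Co1 was lower in knockdown culture, at 5066, 5091 and 4870.4 TPM, against 5512, 5591 and 5836 TPM in control culture. The groups did not overlap, the log2 change was -0.17 (SE 0.0455), and the limma adjusted p was 0.921. mt-Cytb, the cytochrome b subunit of complex III, was at 3391, 3224 and 3468 TPM in knockdown culture and 3689, 3730.2 and 3473 TPM in control culture. Its groups were apart by a few TPM only, and its log2 change was -0.11 (SE 0.0521, adjusted p = 1.00 by limma).

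The other complex I messages overlapped between the culture groups. mt-Nd1 was at 2387, 2277 and 2527 TPM in knockdown culture and 2514, 2419.5 and 2226 TPM in control culture. mt-Nd2 was at 1049.9, 951 and 1063 TPM in knockdown culture and 1080.1, 1113 and 1021 TPM in control culture. mt-Nd4 was at 1118, 1080.1 and 1161 TPM in knockdown culture and 1242, 1234 and 1133 TPM in control culture. For mt-Nd4 knockdown library 3 alone reached into the control range. mt-Nd5 was at 757, 674 and 685 TPM in knockdown culture and 755, 816 and 769 TPM in control culture. mt-Nd6 was at 664, 633 and 829 TPM in knockdown culture and 886, 722 and 677 TPM in control culture. These groups overlapped as well.

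mt-Nd4l and mt-Atp6, both with a whole copy, varied more within a culture group than between groups. mt-Nd4l was at 179, 317 and 228 TPM in knockdown culture and 131, 363 and 325 TPM in control culture, and with Gm10222 it averaged 2610 ± 245 TPM in knockdown culture and 2913 ± 400 TPM in control culture (SD, n = 3 each). mt-Atp6 was at 273, 121 and 94.7 TPM in knockdown culture and 179, 178 and 292 TPM in control culture, and with Gm10925 it averaged 4798 ± 479 TPM in knockdown culture and 4774 ± 470 TPM in control culture (SD, n = 3 each).

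Of the 13 messages in culture, 4 had a positive and 9 a negative log2 change, with a median of -0.085 beside 0.022 over all 13492 genes tested. By limma 0 of 13 messages and 0 of 2 rRNAs were called, and 2 messages (mt-Nd3 and mt-Co1) had an unadjusted p under 0.05; the background was 0.0296% of all genes called, or 4 genes, and 3.42% had an unadjusted p under 0.05. With copies added 3 were positive and 10 negative, with a median of -0.10, 0 called and 2 at an unadjusted p under 0.05, against 0.0297% of genes called. Alone or with copies, 1 message had all knockdown libraries above all control libraries and 2 had all below; over all genes tested 5.25% were apart in the higher and 2.45% in the lower direction. The summed messages were at 28421, 27512 and 28118 TPM in knockdown culture and 28881, 30338 and 28712 TPM in control culture, a log2 ratio of -0.065. The groups of this sum did not overlap, but with the unweighted TPM of the copies added they did, at 48967 to 52541.5 TPM in knockdown culture and 51057 to 54149.5 TPM in control culture.

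The second comparison asked the same in tumors. Again no mitochondrial gene was called, but the direction of most messages was positive. mt-Nd1, the subunit 1 of complex I, was at 1614, 1479 and 1477 TPM in knockdown tumors and 1375, 1310.3 and 1152 TPM in control tumors. The groups did not overlap, and the log2 change was 0.25 (SE 0.0763, adjusted p = 0.151 by limma). mt-Cytb was at 2179, 2066 and 1968 TPM in knockdown tumors and 1868, 1875 and 1516 TPM in control tumors. These groups did not overlap either, and control tumor library 3 was the lowest; the log2 change was 0.25 (SE 0.0906, adjusted p = 0.215 by limma). mt-Atp8 was at 15756, 17001 and 15455 TPM in knockdown tumors and 15361, 13626 and 12216 TPM in control tumors. All knockdown libraries were again above all controls, by a small margin to control library 1, with a log2 change of 0.23 (SE 0.0846, adjusted p = 0.214 by limma).

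The other complex I messages without a whole copy had smaller differences and overlapping groups. mt-Nd2 was at 554, 473 and 536 TPM in knockdown tumors and 484, 515 and 444 TPM in control tumors. mt-Nd4 was at 905, 859.8 and 884 TPM in knockdown tumors and 841, 863 and 685 TPM in control tumors. Control library 3 was the lowest tumor library for both. mt-Nd5 was at 499.7, 412 and 463 TPM in knockdown tumors and 410.1, 448 and 362 TPM in control tumors. mt-Nd6 was at 518, 431 and 491 TPM in knockdown tumors and 402, 471 and 384 TPM in control tumors. Their log2 changes were 0.11 for mt-Nd2, 0.16 for mt-Nd4, 0.17 for mt-Nd5 and 0.20 for mt-Nd6, with limma adjusted p-values of 0.492, 0.394, 0.393 and 0.332. The differences were smaller without control tumor 3, where the log2 change was 0.056 for mt-Nd2, 0.051 for mt-Nd4, 0.092 for mt-Nd5 and 0.14 for mt-Nd6, and it was 0.14 for mt-Cytb, 0.15 for mt-Atp8 and 0.18 for mt-Nd1. mt-Co1 did not share this direction, at 8941, 8297 and 8269.6 TPM in knockdown tumors and 8147, 9280.3 and 8866 TPM in control tumors, a log2 change of -0.043 (SE 0.0592, adjusted p = 0.719 by limma) that was 0.014 under median-of-ratios scaling.

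Summing with copies changed the picture for the messages that have a whole copy. mt-Nd3 alone was at 89.6, 169 and 105 TPM in knockdown tumors and 105, 116 and 154 TPM in control tumors, a log2 change of -0.080 (SE 0.273). With Gm28438 it averaged 1075 ± 81.1 TPM in knockdown tumors and 882 ± 63.5 TPM in control tumors (SD, n = 3 each), its groups no longer overlapped, and the log2 change was 0.28 (SE 0.0759, adjusted p = 0.120 by limma), so the sign depended on whether the copy was counted. mt-Atp6, the proton-channel subunit of ATP synthase, had a log2 change of 1.37 (SE 0.700) alone, from 233, 215 and 320.0 TPM in knockdown tumors and 249, 94.5 and 38.3 TPM in control tumors. With Gm10925 it averaged 5226 ± 609 TPM in knockdown tumors and 4297 ± 307 TPM in control tumors (SD, n = 3 each), a log2 change of 0.28 (SE 0.0905, adjusted p = 0.177 by limma).

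mt-Co2 alone was at 297, 318 and 659.9 TPM in knockdown tumors and 309.8, 410.5 and 219 TPM in control tumors. With Gm28661 it averaged 7770 ± 203 TPM in knockdown tumors and 6945 ± 425 TPM in control tumors (SD, n = 3 each), with a log2 change of 0.16 (SE 0.0527, adjusted p = 0.173 by limma). mt-Co3 alone was at 467, 165 and 121 TPM in knockdown tumors and 386, 174 and 185 TPM in control tumors. Its log2 change was -0.13 (SE 0.613) alone and 0.14 (SE 0.0666, adjusted p = 0.298 by limma) with Gm28437, another change of sign. mt-Nd4l alone was at 124, 130.4 and 237 TPM in knockdown tumors and 99.8, 172 and 138 TPM in control tumors, and its log2 change was 0.23 (SE 0.330) alone and 0.17 (SE 0.0881, adjusted p = 0.345 by limma) with Gm10222. The interval of each of these 5 messages narrowed when the copy was added, as the plot of log2 changes shows.

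**Figure D3:**
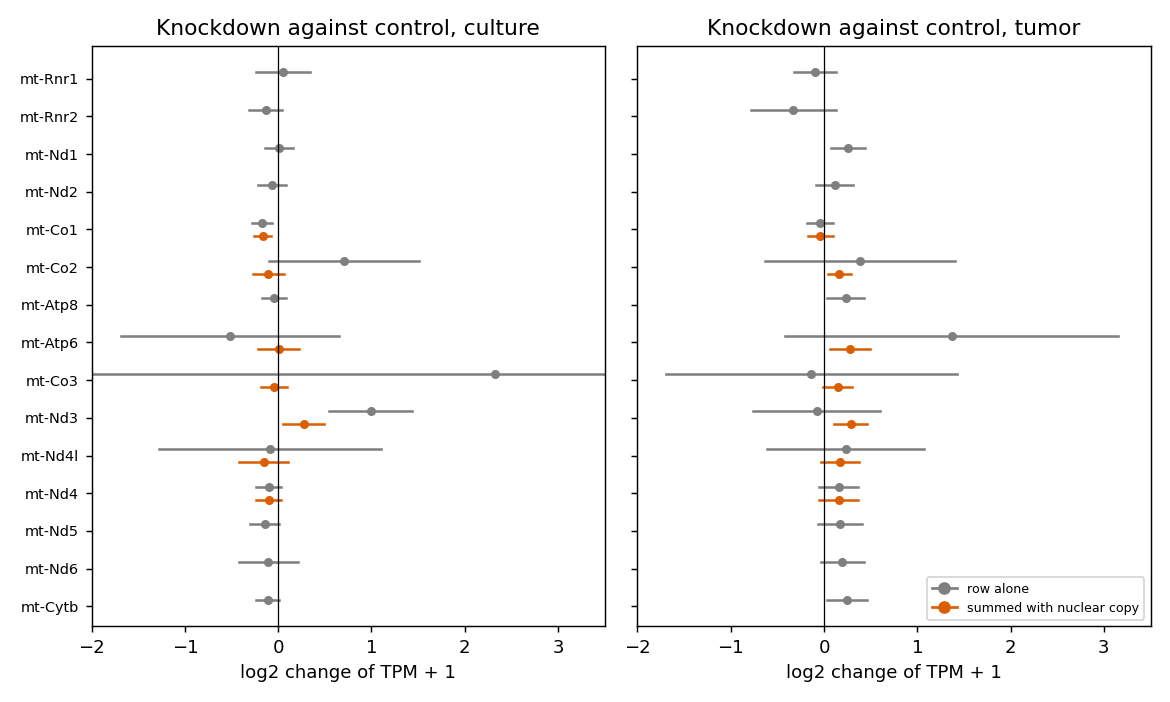
Log2 change of TPM + 1 (points) with the limma 95% interval (lines) for the 2 rRNAs and 13 messages, knockdown against control, in culture (left panel) and tumors (right panel), for the row alone and, for the 7 messages with a copy, for the sum with it. The interval of mt-Co3 alone in culture, -4.04 to 8.69, runs past the axis, and no row passed the adjusted threshold.

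In tumors 10 of the 13 messages alone had a positive and 3 a negative log2 change, with a median of 0.20 beside -0.053 over all 14915 genes tested. By limma 0 of 13 messages and 0 of 2 rRNAs were called, 3 messages had an unadjusted p under 0.05, and 1.51% of all genes, or 225, were called. At the same unadjusted threshold were 18.7% of all genes tested. With copies 12 were positive and 1 negative, with a median of 0.17, 0 called and 6 at an unadjusted p under 0.05, where 1.54% of genes were called. Knockdown libraries lay above all control libraries for 3 messages alone and 6 with copies, and below for 0; over all genes tested 9.81% were apart in the higher and 14.9% in the lower direction. The 6 were mt-Nd1, mt-Nd3, mt-Cytb, mt-Co2, mt-Atp6 and mt-Atp8. Since they are cut from the same precursor RNAs, they are not independent observations.

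The summed messages were at 32178, 32014 and 30988 TPM in knockdown tumors and 30040.5, 29356 and 26359 TPM in control tumors, a log2 ratio of 0.15. No knockdown tumor fell within the control range, also with the unweighted TPM of the copies added, at 54747 to 58692 TPM in knockdown tumors and 48360 to 53377 TPM in control tumors. The rRNA sum was 255, 212 and 267 TPM in knockdown tumors and 316, 246 and 268 TPM in control tumors, a log2 ratio of -0.18, with overlapping groups and the opposite sign. Leaving out 1 library moved this ratio from -0.070 without control tumor 1 to -0.25 without control tumor 2, and it was -0.082 without knockdown tumor 2. The ratio for the summed messages was 0.095 without control tumor 3.

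Summed marker genes separated the tumor groups for the epithelial and the skeletal muscle list, and overlapped between them for erythroid cells, leukocytes, fibroblasts, endothelium and adipose tissue; no list was tested. The 10 epithelial markers summed to 2560 to 2826 TPM in knockdown tumors and 3227 to 3432 TPM in control tumors, with Muc16 at 0 in both groups and Cldn4 at 0 in knockdown tumors. The 16 skeletal muscle markers summed to 387, 286 and 330 TPM in knockdown tumors and 231, 268 and 236 TPM in control tumors, with 11 of 16 at a mean of at least 1 TPM in knockdown tumors and 4 of 16 in control tumors, and none at 0. Much of this sum was also present in cultured cells. There the list summed to 187 to 232 TPM in knockdown and 183 to 220 TPM in control, with 2 of 16 at a mean of at least 1 TPM in each group. Muscle is rich in mitochondria, and Acta1, skeletal actin, was at 33.0, 3.5 and 23.7 TPM in knockdown tumors and 0.42, 3.73 and 0.11 TPM in control tumors. The 6 erythroid markers summed to 37.7 to 88.0 TPM in knockdown tumors and 79.1 to 107 TPM in control tumors. The 13 leukocyte markers summed to 380 to 456 TPM in knockdown tumors and 304 to 500 TPM in control tumors. Ptprc, 1 of these 13, was apart although the sum overlapped. It was at 27.86, 23.74 and 32.03 TPM in knockdown tumors and 17.25, 19.32 and 20.59 TPM in control tumors. The other leukocyte markers are given only as part of the sum. The 7 fibroblast markers summed to 710 to 1098 TPM in knockdown tumors and 1090 to 1477 TPM in control tumors. The 6 endothelial markers summed to 45.4 to 66.0 TPM in knockdown tumors and 62.8 to 96.2 TPM in control tumors, and the 6 adipose markers to 7.46 to 21.4 TPM in knockdown tumors and 6.57 to 16.2 TPM in control tumors. The part of these cells in the mitochondrial values was not tested. Without knockdown tumors 1 and 3, the pair with the most Acta1, the log2 change in tumors was 0.45 for mt-Nd3, -0.024 for mt-Nd2 and -0.031 for mt-Nd4l, each opposite in sign to the value from all 6 libraries. Only 1 knockdown tumor remains in that fit. The 3 messages whose tumor groups did not overlap as rows alone could not turn their sign there, since every knockdown tumor lay above every control tumor. Their log2 changes were 0.21 for mt-Nd1 (0.25 from all 6 libraries), 0.24 for mt-Cytb (0.25) and 0.31 for mt-Atp8 (0.23).

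Whether the knockdown effect differed between tumors and culture was tested for each gene over all 12 libraries. The difference, tumor change minus culture change, was positive for 10 of 13 messages alone and for 13 of 13 with copies, with medians of 0.26 and 0.27 beside -0.064 over all 15381 genes tested. By limma 0 of 13 messages and 0 of 2 rRNAs were called, while 6 messages alone and 6 with copies had an unadjusted p under 0.05, as did 11.1% of all genes. The background was 0.754% of genes called, both for rows alone and for sums with copies. The smallest adjusted p among the members belonged to mt-Cytb, with a difference of 0.36 (SE 0.110, adjusted p = 0.219 by limma). For mt-Nd3 the difference was -1.07 (SE 0.360, adjusted p = 0.290 by limma) alone and 0.012 (SE 0.129) with its copy.

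Tumors and cultured cells were compared as a description only, because their tables were normalized separately and tumors hold cells other than HM1. The complex I messages and mt-Cytb were lower in tumors and mt-Co1 and mt-Co3 higher, in both hairpin groups, with copies added. mt-Nd2 was at 473 to 554 TPM in knockdown tumors and 951 to 1063 TPM in knockdown culture, a ratio of 0.510. It was at 444 to 515 TPM in control tumors and 1021 to 1113 TPM in control culture, a ratio of 0.449. No tumor library overlapped with culture for this gene. The ratio for mt-Cytb was 0.616 in the knockdown and 0.483 in the control groups. That for mt-Nd1 was 0.635 in the knockdown and 0.536 in the control groups.

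The remaining complex I messages had tumor to culture ratios between 0.650 for mt-Nd5 and 0.811 for mt-Nd4l in the knockdown groups, and between 0.521 for mt-Nd5 and 0.720 for mt-Nd3 in the control groups, with copies added. All 7 complex I messages were thus lower in tumors. mt-Co1 with its copy averaged 1.66 times its culture level in knockdown tumors and 1.52 times in control tumors, and mt-Co3 with its copy 1.38 times in knockdown tumors and 1.21 times in control tumors. Both were higher with no overlap.

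Counted over the 13 messages with copies, 3 were higher and 8 lower in knockdown tumors than in knockdown culture without overlap, and 2 overlapped. Over all genes 39.5% were higher and 29.5% lower. In the control groups 2 were higher and 9 lower, and 2 overlapped, where 43.4% of all genes were higher and 26.8% lower. For the rows alone the counts were 2 higher and 7 lower in the knockdown groups and 1 higher and 6 lower in the control groups. mt-Atp8 was higher in knockdown tumors, at 1.29 times its culture level, and overlapped in the control groups, and mt-Co2 with its copy was lower in control tumors, at 0.884 times its culture level, and overlapped in the knockdown groups, at 1.06 times. The difference between these ratios is the difference between the knockdown effects, which was not called for either gene. mt-Rnr1 was higher in control tumors than in control culture without overlap, at a ratio of 1.31, and overlapped in the knockdown groups, at 1.18.

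**Figure D4:**
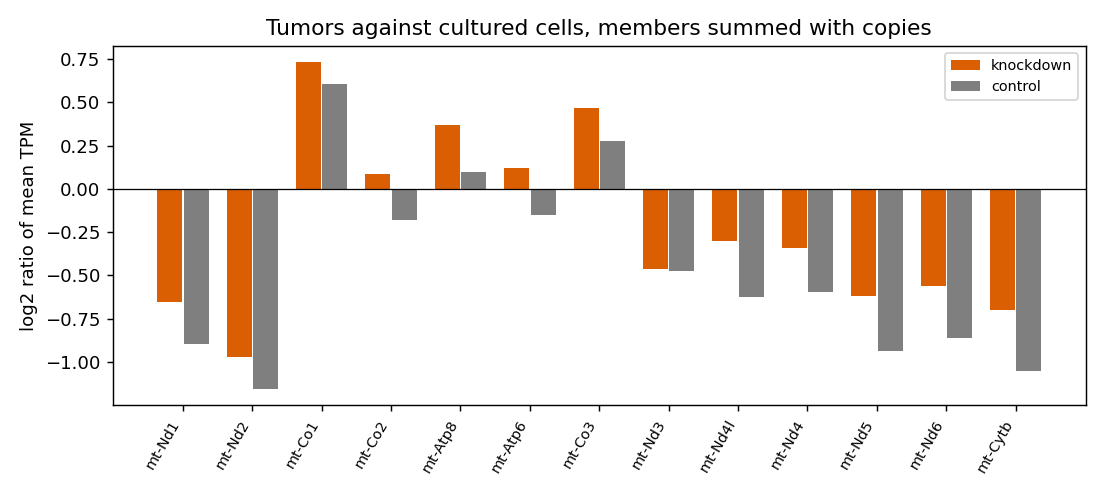
Log2 ratio of mean TPM in tumors to that in cultured cells for the 13 messages in genome order, summed with copies, in the knockdown groups (left bar of each pair) and the control groups (right bar). The bars of all 7 complex I messages and mt-Cytb point down and those of mt-Co1 and mt-Co3 point up, with ratios from 0.449 for mt-Nd2 in the control groups to 1.66 for mt-Co1 in the knockdown groups.

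The same contrast appeared within the mitochondrial messages, where the share of mitochondrial RNA in a library cancels. Complex I messages made up 12.9% ± 0.797 of the 13 messages with copies in knockdown tumors and 12.5% ± 0.472 in control tumors, against 20.5% ± 0.341 in knockdown culture and 20.2% ± 0.473 in control culture (SD, n = 3 each). mt-Cytb, the only complex III message, made up 3.77% ± 0.121 in knockdown tumors and 3.55% ± 0.221 in control tumors, against 6.87% ± 0.0865 in knockdown culture and 7.09% ± 0.0404 in control culture. No tumor library overlapped with a culture library for either share. Complex IV messages made up 44.6% ± 1.02 in knockdown tumors and 47.4% ± 2.56 in control tumors, against 37.3% ± 0.525 in knockdown culture and 38.4% ± 1.38 in control culture. These shares were also apart. Within complex IV the shares of mt-Co1 and mt-Co3 were higher in tumors, and that of mt-Co2 was not. With its copy, mt-Co2 made up 14.1% ± 0.345 in knockdown tumors and 14.1% ± 0.620 in control tumors. In culture it made up 14.9% ± 0.636 in knockdown and 15.3% ± 0.709 in control. Complex V messages made up 38.7% ± 1.82 in knockdown tumors and 36.6% ± 2.24 in control tumors, against 35.2% ± 0.349 in knockdown culture and 34.3% ± 0.895 in control culture. Here tumors and culture overlapped. Control tumors 2 and 3, both at 35.3%, lay below knockdown culture library 2, at 35.6%, and just below control culture library 2, at 35.3%.

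The ratio of mt-Co1 with its copy to mt-Cytb restates the contrast in a single number per library. This ratio was not among those planned, and it sets a message higher in tumors over a message lower there. A gap between tumors and culture is therefore built in, and the ratio adds no separate evidence. The ratio averaged 4.61 ± 0.0916 in knockdown tumors and 5.67 ± 0.827 in control tumors, against 1.71 ± 0.0763 in knockdown culture and 1.78 ± 0.105 in control culture (SD, n = 3 each). Which cells of the tumors carried these ratios was not measured.

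**Figure D5:**
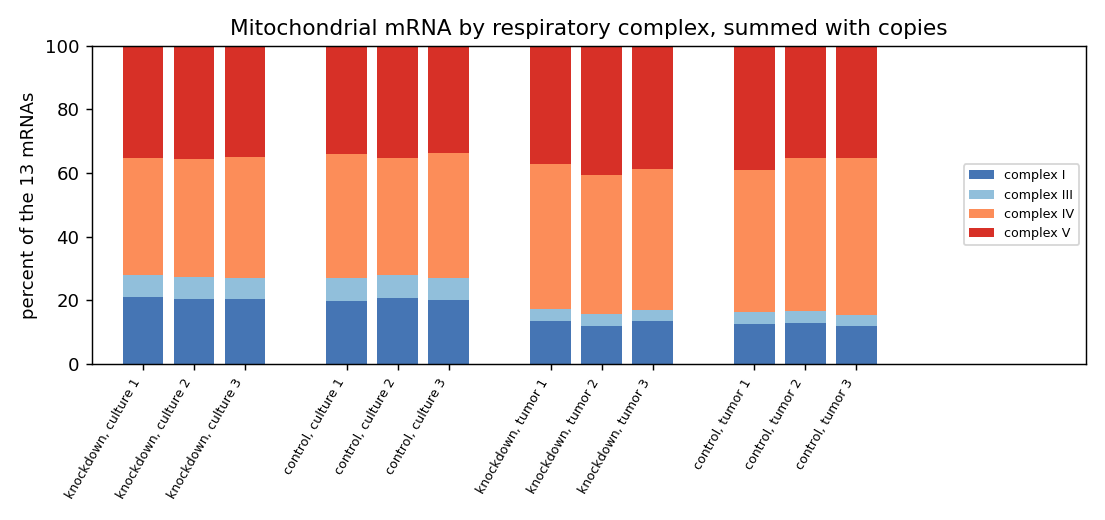
Share of the 13 messages, summed with copies, taken by each respiratory complex in each library, in percent (stacked bars). Complex I is at 11.9% to 13.3% in the 3 knockdown tumors and 11.95% to 12.9% in the 3 control tumors, against 19.8% to 20.9% in the 6 culture libraries.

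Nuclear genes that make, process and translate mitochondrial RNA were counted over 5 lists. In culture by limma 0 genes were called among 20 of transcription and mitochondrial DNA maintenance, 31 of RNA processing and stability, 5 tested of 6 nuclear regulators, 81 tested of 84 ribosomal proteins and 20 tRNA synthetases; 4 of 157 tested had an unadjusted p under 0.05, or 2.55%, against 3.42% of all genes. The smallest p-values per list belonged to Dna2 and Polg, Slirp and Trmu, Nrf1 and Esrra, Mrpl27-ps (by its name a pseudogene) and Mrps33, and Vars2 and Gatb, with limma adjusted p-values from 0.881 to 1.00.

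In tumors 3 of 156 tested genes rose and 0 fell, or 1.92%, which is near the 1.51% called over all genes. At an unadjusted p under 0.05 were 21 of them, or 13.5%, against 18.7% of all genes. Pnpt1, the mitochondrial RNA-degrading exonuclease PNPase, was at 26.3, 27.9 and 26.2 TPM in knockdown tumors and 20.6, 19.2 and 19.8 TPM in control tumors, a log2 change of 0.41 (SE 0.0713, adjusted p = 0.0464 by limma). Mrpl55, a protein of the large mitochondrial ribosomal subunit, was at 36.4, 35.8 and 34.2 TPM in knockdown tumors and 26.0, 27.6 and 26.1 TPM in control tumors, a log2 change of 0.40 (SE 0.0672, adjusted p = 0.0424 by limma). Mrps18c, a protein of the small subunit, was at 87.7, 90.8 and 80.7 TPM in knockdown tumors and 65.4, 56.4 and 65.1 TPM in control tumors, a log2 change of 0.47 (SE 0.0829, adjusted p = 0.0494 by limma). None of the groups of these 3 genes overlapped. All 3 calls were lost when any 1 of the 6 tumor libraries was left out, with limma adjusted p-values from 0.0551 to 0.176 and with no filter on low values (0.0944 to 0.117), and that of Mrps18c also under median-of-ratios scaling (limma adjusted p = 0.0581).

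They were 1 of 31 processing genes and 2 of 80 ribosomal proteins tested. The median log2 change of the ribosomal proteins was 0.041, that of the processing genes -0.053, and that of all genes tested -0.053. Among transcription and maintenance genes 0 of 20 were called by limma and 3 had an unadjusted p under 0.05; the smallest p-values belonged to Polrmt, the mitochondrial RNA polymerase, with a log2 change of -0.44 (adjusted p = 0.103), and Dna2, a nuclease and helicase, with 0.34 (adjusted p = 0.233). Among nuclear regulators 0 of 5 were called and 0 had an unadjusted p under 0.05, with Ppargc1a at -0.39 (limma adjusted p = 0.313) and Pprc1 at -0.18 (limma adjusted p = 0.338), both coactivators of mitochondrial biogenesis genes. Among tRNA synthetases 0 of 20 were called and 4 had an unadjusted p under 0.05, with Aars2 at -0.30 (limma adjusted p = 0.247). For the difference between the tumor and culture effects 0 genes of the 5 lists were called by limma, and 15 of 157 tested had an unadjusted p under 0.05, or 9.55%, against 11.1% of all genes. The smallest p-values per list belonged to Polg and Polg2, Trit1 and Pnpt1, Pprc1 and Nrf1, Mrpl10 and Mrpl27-ps, and Vars2 and Ears2, with limma adjusted p-values from 0.219 for Mrpl10 to 0.708 for Nrf1.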

How the data were processed

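RNA of 12 HM1 libraries was sequenced from total RNA. The authors deposited 1 TPM table per sample, with the gene length as another column; fastp, HISAT and RSEM and the GRCm39 build are named in the submitters' processing notes, without versions. Mapping and sharing of reads between near-identical genes were not stated further. Groups and replicate numbers came from the sample titles. Cell and tumor tables were normalized separately.

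The test was limma 3.58.1 in R 4.3.3, with trended and robust variances, on log2(TPM + 1), over genes with a group mean of at least 1 TPM. On this scale fold changes of low genes come out too small. Calls needed an adjusted p under 0.05 (two-sided, Benjamini-Hochberg), with every tested gene in the adjustment: 13492 in culture, 14915 in tumors and 15381 for the difference. All adjusted p-values come from limma, whose code was tested on simulated data.

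The mitochondrial rows, lists and marker genes were chosen with earlier results of these data known. Named were all members with values, called genes of the lists (otherwise the 2 smallest p-values) and the copies; 1 gene this rule names is not reported here. Per gene, and for shares of the 13 messages, copies were summed with members as TPM weighted by length; class totals and their share of all TPM add the copies unweighted. Both were chosen after seeing the data. Sums over members received no test. Sequences came from GENCODE M21 transcripts (GRCm38). Alternatives covered the pseudocount, filters, scaling, a replicate block and left-out libraries.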

Additional observations from a re-analysis of the deposited data

Results flagged for a closer look

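mt-Cytb was singled out because all knockdown libraries lay below all control libraries in culture and above all of them in tumors. The knockdown effect in tumors minus that in culture was 0.36 on the log2 scale (SE 0.110), and the test of this difference did not pass the threshold (limma adjusted p = 0.219, with 0.148 the lowest when 1 of the 12 libraries was left out).

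The sum of the 13 messages behaved in the same way for the rows alone, with a log2 ratio in tumors minus that in culture of 0.22. This difference was not tested, since the sum runs over the members. With the nuclear copies added, the culture groups overlapped and the tumor groups did not.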

How the results depend on the processing

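No mitochondrial gene was called under any alternative to the limma fit except when control culture library 1 was left out, so that leaving out 1 library gave 0 to 1 calls in culture and 0 in tumors and for the difference. The replicate numbers did not pair the samples: correlations of same-numbered libraries ran from -0.155 to 0.0489, and 1 of 6 correlated best with its own number. With the replicate block 0 mitochondrial genes were called in culture, tumors and the difference, and 2 genes instead of 225 were called in tumors and 67 instead of 116 for the difference. The calls among machinery genes in tumors, 3 as reported, numbered 0 with no filter, with the replicate block, without knockdown tumors 1 and 3, and in each left-out library (0 to 0). The rRNA sum in tumors had a log2 ratio of -0.39 without knockdown tumors 1 and 3, which leaves 1 knockdown library that limma assumes to vary like the others. Signs turned in 13 single results outside the fits with 1 library left out, and in 17 results of those fits. Median-of-ratios scaling gave -0.017 for mt-Nd1 in culture and 0.014 for mt-Co1 in tumors. Adding copies gave -0.10 for mt-Co2, -0.045 for mt-Co3 and 0.0070 for mt-Atp6 in culture, 0.28 for mt-Nd3 and 0.14 for mt-Co3 in tumors, and 0.012 for mt-Nd3, 0.27 for mt-Co2 and 0.19 for mt-Co3 for the difference. Leaving out knockdown tumors 1 and 3 gave -0.024 for mt-Nd2, 0.45 for mt-Nd3 and -0.031 for mt-Nd4l. Leaving out 1 library turned mt-Atp8 (-0.075 to 0.015), mt-Co3 (-0.22 to 3.81), mt-Nd1 (-0.043 to 0.045), mt-Nd4l (-0.55 to 0.19), mt-Nd6 (-0.22 to 0.0098) and mt-Rnr1 (-0.058 to 0.15) in culture, mt-Co3 (-0.71 to 0.26), mt-Nd3 (-0.34 to 0.11) and mt-Nd4l (-0.065 to 0.42) in tumors, and mt-Co3 (-3.94 to 0.081) for the difference. The cause was not tested. Genes called over the whole table, 4 in culture, numbered 11 at a pseudocount of 0.1, 8 with the stricter filter, 8 with all groups in 1 fit and 7 to 15 with 1 library left out; 225 in tumors became 82 with no filter, 599 in 1 fit, 72 without knockdown tumors 1 and 3 and 38 to 229 with 1 library left out; 116 for the difference became 26 at a pseudocount of 0.1 and 67 to 164 with 1 library left out. With 1 library left out the log2 ratio of the summed messages ran from -0.080 to -0.040 in culture and from 0.095 to 0.19 in tumors. Its sign could not turn, because the groups of this sum did not overlap in either tissue. The summed rRNAs in tumors, whose groups overlapped, kept their sign at -0.25 to -0.070. Not run were the tRNA sum over genes of at least 200 bases, since no tRNA is that long, and a single fit for the difference, which already uses all groups. The depth is unknown, and the 22 tRNAs at 0 allow no statement about their level.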

Other observations

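Genes whose level followed the mean of the 13 messages most closely, over 12 libraries and with each tissue centred on its own mean, were Cebpzos (Pearson's r = 0.894), Tmem128 (0.855), Gm15506 (0.830), Gpx8 (0.805) and Asb3 (0.800), out of 11844 genes. These are the highest of 11844 correlations over 12 libraries, and how high such a maximum lies by chance was not tested. The points share their libraries and their scaling to a fixed total, and the mean includes the messages that share sequence with nuclear copies. Against the 6 messages with no copy listed, a choice made after seeing the data, a different set led: Ankrd1 (0.942), Gm12918 (0.921), 1700012B09Rik (0.879), Pdss1 (0.873) and Sgk2 (0.870).

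Of further nuclear genes with mitochondrial sequence, 4 were looked at beside the 7 copies on chromosome 1. Gm13339, Gm13340, Gm13341 and Gm11478 were at most at 1.31 TPM in any library.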
